A study of Mus musculus with 24 samples.

Results

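BDNF and its relatives were followed through 6 genes in the visual cortex of 24 mice. The genes are the ligands Bdnf and Ntf3, the receptor tyrosine kinases Ntrk2 and Ntrk3, the p75 receptor Ngfr and the sorting receptor Sort1. They were taken by symbol from the 55414 genes of the count table, and all 6 were found and were among the 14464 genes tested. The animals were male C57BL/6J mice of 8 to 10 weeks kept on a reversed light cycle and used in their dark phase, with 6 mice in each of 4 groups. Dark mice received vehicle (PBS) and stayed in the dark. Light mice received vehicle and were moved into light. Psilocybin-dark mice received 5 mg/kg psilocybin and stayed in the dark, and psilocybin-light mice received the same dose and were moved into light. The visual cortex was dissected 2.5 h after the move into light or the matching time in the dark, and polyadenylated RNA was sequenced, 1 library per mouse. 2 sources give the light exposure and they disagree. The groups here follow the headings of the study's supplementary count table, whereas in the samples' own treatment labels the drug is the same but light and dark are exchanged, in each of the 24 libraries. If the labels hold, light against dark, psilocybin-light against psilocybin-dark and the interaction change sign, the psilocybin effects in dark and in light trade places, and psilocybin-light against dark becomes psilocybin-dark against light.

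Neurotrophins are secreted growth factors made as precursors and cut to their mature form. BDNF acts mainly through TrkB (the product of Ntrk2) and neurotrophin-3 mainly through TrkC (Ntrk3), while the precursors bind p75 (Ngfr) together with sortilin (Sort1), which also sorts proBDNF inside the cell. In the cortex Bdnf is an activity-regulated gene of excitatory neurons with several promoters that lead to the same protein, and visual input is a classical stimulus for it. Psychedelics have been discussed as ligands that act through TrkB, which is why these genes are of interest beside a drug such as psilocybin.

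The Bdnf gene (ENSMUSG00000048482, GRCm39, chromosome 2, 109505045 to 109557475, plus strand) has 7 promoter windows in RefSeq (GRCm38.p6), each of 250 bases before and 50 after a start. Only 1 of them holds the CRE-like site TCACGTCA, searched on both strands with its reverse complement TGACGTGA. It lies in the window of the start known as promoter IV, where the site begins 38 bases upstream of the start. The 250 bases before that start are shown with the site in capitals, beside the same stretch before the first start of the gene, which holds neither this site nor the palindrome TGACGTCA. Both stretches were found once in GRCm39, at chr2:109522531-109522780 and chr2:109504795-109505044 on the plus strand, and hold no annotated exon base.
Bdnf, promoter IV: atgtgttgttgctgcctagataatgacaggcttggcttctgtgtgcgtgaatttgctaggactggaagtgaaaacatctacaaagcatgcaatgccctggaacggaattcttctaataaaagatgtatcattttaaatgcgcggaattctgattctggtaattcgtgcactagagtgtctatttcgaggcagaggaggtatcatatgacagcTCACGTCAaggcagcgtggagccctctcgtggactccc
Bdnf, first start: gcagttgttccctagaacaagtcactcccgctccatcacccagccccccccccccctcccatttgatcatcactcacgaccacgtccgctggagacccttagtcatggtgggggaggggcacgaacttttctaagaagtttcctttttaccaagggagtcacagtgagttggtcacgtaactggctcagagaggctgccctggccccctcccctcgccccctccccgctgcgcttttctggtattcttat
The CRE-like site occurred in 145 of the 32851 promoter windows of the RefSeq table (0.441%) and the palindrome in 588 (1.79%). Neither was present in the 2 windows of Ntf3, the 1 of Ntrk2 or the 1 of Ngfr. A match describes the letters of the window and not binding, and the counts used here are summed over each gene, so that transcripts from the different Bdnf promoters cannot be told apart.

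Libraries held between 13552516 and 17906994 counts. Normalized counts below are counts scaled by TMM to the mean effective library size, and log2 fold changes come from edgeR's quasi-likelihood test over all 24 libraries, with Benjamini-Hochberg adjustment over the 14464 genes. Some libraries carried markers of other regions. The summed level of 6 cerebellar markers was between 142 and 1205 normalized counts in 20 libraries and far higher in dark mice 1 and 6, psilocybin-dark mouse 12 and light mouse 18, at 23944, 51194, 23868 and 14429 in that order. Dark mice 2 to 5 held more hippocampal marker RNA than the other groups, and calls that changed without these libraries are given with each gene. Leaving out dark mice 2 to 5 leaves only dark mice 1 and 6, both with cerebellar markers, as the dark group. Thalamic markers summed to 3154 in psilocybin-light mouse 23 and to 3052 and 2307 in dark mice 1 and 6, against at most 1793 elsewhere. Choroid plexus and ependyma markers summed to 2163 in light mouse 14 and 913 in psilocybin-light mouse 19, against at most 196 elsewhere. The part of these 2 lists was not tested beyond the fits that left out 1 library. In bulk tissue, fewer cells of a type and less RNA per cell cannot be told apart.

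Against the dark mice, 3 of the 6 genes passed the test in light mice, where 31.9% of all genes tested did so. 1 was higher and 2 were lower, against 15.4% and 16.5% of all genes. In psilocybin-dark mice 3 of 6 passed, against 24.7% of all genes, with 1 higher and 2 lower against 11.9% and 12.8%. In psilocybin-light mice 4 of 6 passed, against 38.4%, with 1 higher and 3 lower against 17.4% and 21.0%. These 3 comparisons share the same 6 dark mice, and their background shares correspond to about 2 of 6 genes. Between psilocybin-light and psilocybin-dark mice 1 of 6 passed, against 6.38% of all genes, and that gene was Bdnf, which was lower, as were 3.78% of all genes. The interaction, which sets the change from dark to psilocybin-light against light alone and psilocybin alone added together on the log2 scale, was passed by Bdnf, as a lower value, as 1 of 6, against 8.75% of all genes and 4.86% in that direction. No member passed between psilocybin-light and light mice by edgeR or DESeq2, where 0.608% of all genes did by edgeR, and 0 members had an unadjusted p under 0.05 there. Between psilocybin-dark and light mice no member passed by edgeR, against 0.456% of all genes, with 1 member at an unadjusted p under 0.05 and 1 called by DESeq2, in both cases Bdnf.

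Bdnf was lowest in the dark, higher in light and highest in psilocybin-dark mice, and in psilocybin-light mice its mean stood between those of dark and light. Normalized counts ran from 381 to 760 in the dark mice (median 595), from 743 to 913 in the light mice (median 863), from 816 to 1469 in the psilocybin-dark mice (median 1284) and in psilocybin-light animals from 617 to 1012 (median 718). All 6 psilocybin-dark mice lay above all dark mice, a separation in this direction seen in 3.13% of all genes tested, and 5 of 6 light mice lay above all dark mice. Means were 588.1 ± 138 in dark, 847.7 ± 65.9 in light, 1216 ± 282 in psilocybin-dark and 766.0 ± 146 in psilocybin-light mice (SD, n = 6 each).

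**Figure D1:**
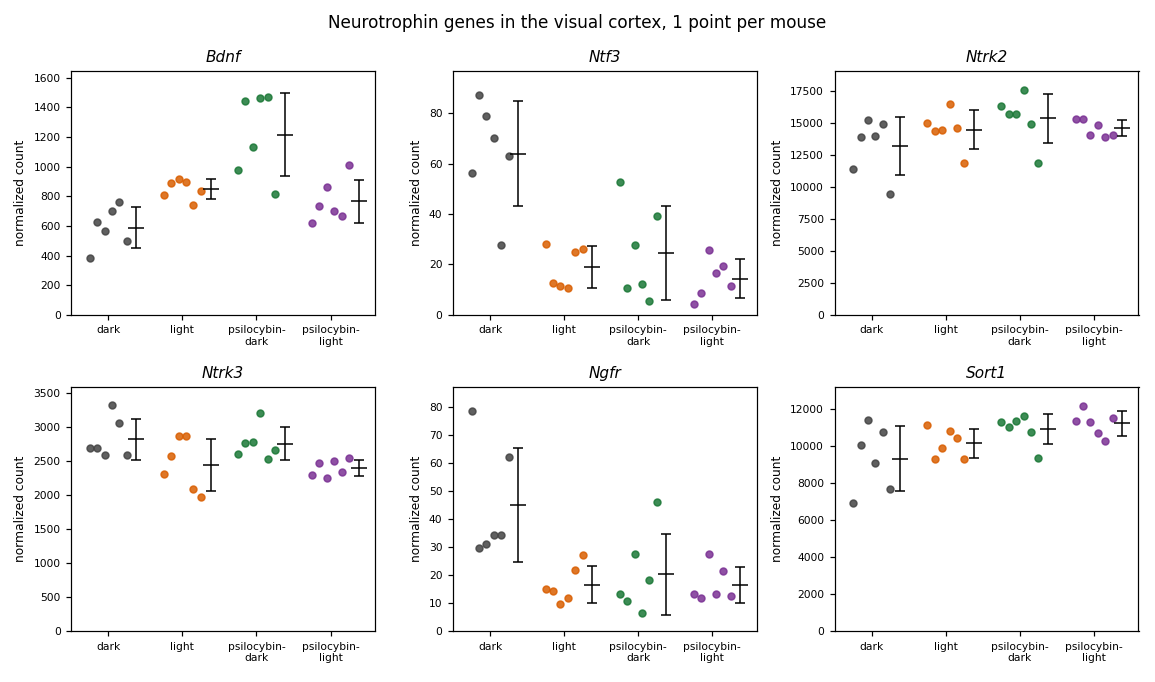
Normalized counts of the 6 genes, 1 point per mouse in library order within each of the 4 groups, with the mean and SD (n = 6) as a black bar at the right of each group; every y axis is linear and starts at 0. Bdnf is highest in the psilocybin-dark mice, Ntf3 and Ngfr are highest in the dark mice, and the dark mice 1 and 6 (first and last dark points) are the lowest 2 dark mice for Bdnf, Ntrk2 and Sort1 and the highest 2 for Ngfr.

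The rise of Bdnf was 1.44-fold in light (log2 0.53, SE 0.16, edgeR adjusted p = 0.0133) and 2.07-fold with psilocybin in the dark (log2 1.05, SE 0.16, edgeR adjusted p = 7.47e-05). Two-sided exact permutation tests of 6 against 6 mice gave p = 0.00433 and p = 0.00216, the second being the smallest the design allows, and both were 0.0130 after adjustment over the 6 pairwise comparisons. In psilocybin-light mice the difference from dark was 0.38 (SE 0.16, edgeR adjusted p = 0.0592), which did not pass, and 2 of 6 mice lay above all dark mice. DESeq2 called it, with an adjusted p of 0.0444. Without dark mice 2 to 5 the differences from dark were 0.95 in light, 1.47 in psilocybin-dark and 0.81 in psilocybin-light mice (edgeR adjusted p = 0.00132, 3.70e-05 and 0.00366).

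Where both groups had received psilocybin, Bdnf was 1.59-fold lower in the mice moved into light than in those kept in the dark (log2 -0.67, SE 0.16, 95% interval -0.99 to -0.34, edgeR adjusted p = 0.0123, exact permutation p = 0.0108 and 0.0216 adjusted). Under the samples' own labels the same libraries read as 1.59-fold higher in light. 4 of 6 psilocybin-light mice lay below all psilocybin-dark mice. The lowest psilocybin-dark value, 816, was that of mouse 12, which held cerebellar markers, and the next, 979, lay below the highest psilocybin-light value of 1012. Without dark mice 1 and 6, psilocybin-dark mouse 12 and light mouse 18 the difference was -0.74 (edgeR adjusted p = 0.000464). It kept its sign and passed in all 11 alternatives run on this fold change and in the 24 fits that left out 1 library. Light mice and psilocybin-light mice were not separated (log2 -0.15, 95% interval -0.47 to 0.18, edgeR adjusted p = 0.876), an interval that includes a decrease of up to 0.47 on the log2 scale.

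The interaction for Bdnf was -1.19 on the log2 scale (SE 0.22, 95% interval -1.65 to -0.73, edgeR adjusted p = 0.00333), the 87th smallest p of the 14464 genes. Markers of neocortical glutamatergic neurons and of layer 4 had median log2 interactions of -1.16 and -1.50. Of these, 2 of 5 and 2 of 3 passed as lower and none as higher, against 4.86% of all genes that passed as lower. Their part in the Bdnf interaction was not tested. The Bdnf interaction uses the dark mice, in which the sums of hippocampal and cerebellar markers had their widest ranges. It was -1.10 without the 4 libraries with cerebellar markers (edgeR adjusted p = 0.000272) and -1.61 without dark mice 2 to 5 (edgeR adjusted p = 0.000171), but -0.93 with the hippocampal marker level as a covariate (edgeR adjusted p = 0.262). Psilocybin-dark and light mice differed by 0.52 (SE 0.16, edgeR adjusted p = 0.0997, exact permutation p = 0.0152 and 0.0227 adjusted), and without psilocybin-dark mouse 12 this difference passed (0.61, edgeR adjusted p = 0.0446).

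Genes whose log2 levels (counts scaled to library size) over the 24 libraries were most like those of Bdnf, by Pearson r among 12393 genes, were Rnf4 (0.894), 2510009E07Rik (0.891), Pcsk1 (0.889), Spred1 (0.885) and Fmr1 (0.871). The 24 points share group, tissue content and depth, and by Spearman rho only Rnf4 of these 5 remained among the leading 5, beside Fosb, Ptgs2, Baz1a and Mapk4. Pcsk1 encodes prohormone convertase 1, a protease of the regulated secretory pathway that is among the enzymes able to cut proBDNF, and Spred1 an inhibitor of the Ras-MAPK pathway on which Trk receptors signal. Fmr1 encodes the RNA-binding protein FMRP, a regulator of translation at synapses.

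Pcsk1 had means of 1202 ± 296 in dark, 1511 ± 182 in light, 2021 ± 364 in psilocybin-dark and 1406 ± 160 normalized counts in psilocybin-light mice (SD, n = 6 each). It was higher in psilocybin-dark than in dark mice (log2 0.75, SE 0.14, edgeR adjusted p = 0.000488) and lower in psilocybin-light than in psilocybin-dark mice (log2 -0.52, SE 0.14, edgeR adjusted p = 0.0245), with ranges of 1140 to 1600 and 1488 to 2397. Its interaction was -0.86 (SE 0.20, edgeR adjusted p = 0.0103). Spred1 was likewise lower in psilocybin-light than in psilocybin-dark mice (log2 -0.40, edgeR adjusted p = 0.0219), as were Fmr1 (-0.25, 0.0216) and 2510009E07Rik (-0.39, 0.00174), while Rnf4 did not pass (-0.11, 0.0641). These genes were chosen for their likeness to Bdnf over the same libraries, so their differences describe how far the likeness goes and add no independent support.

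Activity-regulated genes around Bdnf differed in how far they followed this order. Npas4, an activity-induced transcription factor that binds Bdnf promoters, had means of 98.2 ± 46.5 in dark, 505.2 ± 128 in light, 318.3 ± 40.8 in psilocybin-dark and 616.2 ± 257 normalized counts in psilocybin-light mice (SD, n = 6 each). It was higher in psilocybin-light than in psilocybin-dark mice (log2 0.95, SE 0.27, edgeR adjusted p = 0.0374), the opposite direction to Bdnf. Arc, an immediate-early gene of synapses that BDNF can induce, ranged from 8352 to 14940 in psilocybin-light and from 2159 to 8377 in psilocybin-dark mice, a difference that did not pass (log2 0.80, SE 0.29, edgeR adjusted p = 0.106). Mef2c, which encodes another activity-regulated factor and had its means in the same order as Bdnf, was above its dark level in light, psilocybin-dark and psilocybin-light mice (log2 0.97, 1.09 and 0.94), and the difference between the psilocybin groups did not pass (log2 -0.15, edgeR adjusted p = 0.801). Crebbp and Creb1, which encode the coactivator CBP and the factor CREB that binds CRE sites such as the one in the promoter IV window, were lower in psilocybin-light than in psilocybin-dark mice (log2 -0.67, edgeR adjusted p = 0.00145, and -0.38, 0.0399).

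**Figure D2:**
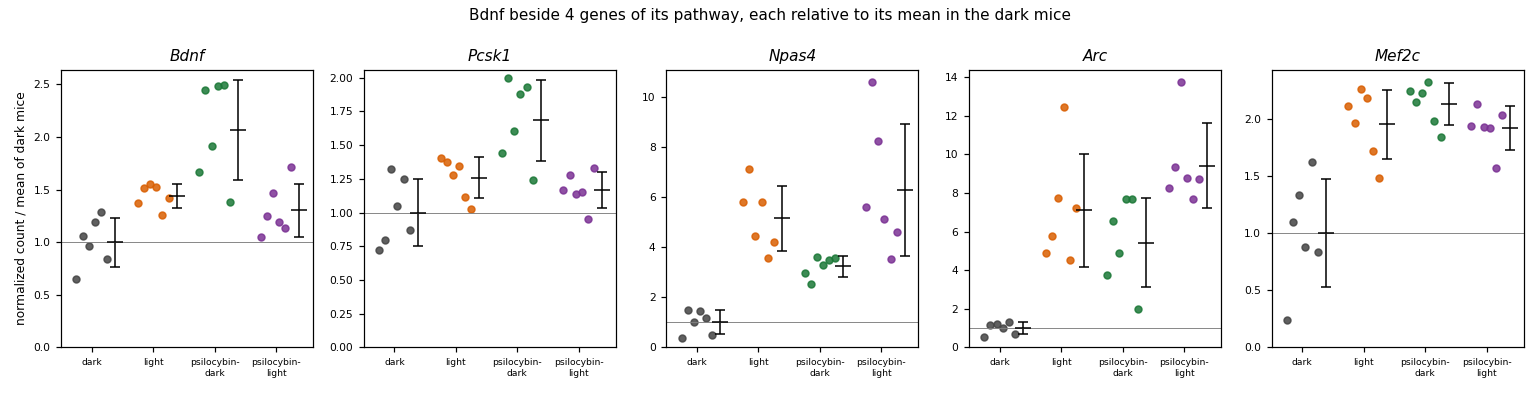
Normalized counts of Bdnf, Pcsk1, Npas4, Arc and Mef2c divided by each gene's mean in the dark mice (grey line at 1), 1 point per mouse, with mean and SD (n = 6) in black; the linear y axes start at 0 and differ between panels. Bdnf and Pcsk1 are lower in psilocybin-light than in psilocybin-dark mice, whereas Npas4 is higher there and Arc has the higher mean.

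Ntf3 (ENSMUSG00000049107, chromosome 6, 126078375 to 126143873, minus strand), the gene of neurotrophin-3, was the ligand that fell. It was read at low depth, with 4 to 94 counts per library. Normalized counts ran from 27.9 to 87.2 in dark mice (median 66.7), from 10.7 to 28.3 in light mice (median 18.7), from 5.35 to 52.6 in psilocybin-dark mice (median 19.9) and from 4.46 to 25.7 in psilocybin-light mice (median 13.9). The psilocybin-light mice lay below all dark mice, as did 5 of 6 light mice and 4 of 6 psilocybin-dark mice. A complete separation downward from dark was seen in 7.56% of all genes in the psilocybin-light comparison.

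Ntf3 was lower than in dark by 3.36-fold in light (log2 -1.75, SE 0.43, edgeR adjusted p = 0.00351), by 2.60-fold in psilocybin-dark (log2 -1.38, SE 0.42, edgeR adjusted p = 0.0199) and by 4.38-fold in psilocybin-light mice (log2 -2.13, SE 0.44, edgeR adjusted p = 0.000626). The psilocybin-dark call was lost without psilocybin-dark mouse 8 or 10 (edgeR adjusted p = 0.0528 without mouse 10 and just above the threshold without mouse 8), with only the compared groups in the fit (edgeR adjusted p = 0.0661) and without dark mice 2 to 5 (-1.28, edgeR adjusted p = 0.0688). No difference passed among the other 3 groups, with psilocybin-light against psilocybin-dark at -0.75 (95% interval -1.70 to 0.20, edgeR adjusted p = 0.390), and the interaction was 1.00 (SE 0.63, edgeR adjusted p = 0.346). The genes most like Ntf3 over the 24 libraries were Fhl1, Lamb1 and Dpp6 (Pearson r 0.912, 0.911 and 0.906).

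Among the receptors Ntrk2 passed in no comparison in the fit of 1 term per group to all libraries. The gene (ENSMUSG00000055254, chromosome 13, 58954176 to 59281784, plus strand) encodes TrkB, with a full-length kinase form in neurons and truncated forms that are abundant in astrocytes, and a count per gene adds all of them up. Normalized counts ran from 9464 to 15260 in dark (median 13968), from 11856 to 16482 in light (median 14557), from 11828 to 17588 in psilocybin-dark (median 15700) and from 13907 to 15322 in psilocybin-light mice (median 14468). The ranges overlapped in every pair of groups. Against dark the log2 differences were 0.14 in light (95% interval -0.07 to 0.35, edgeR adjusted p = 0.324), 0.22 in psilocybin-dark (0.01 to 0.43, 0.119) and 0.15 in psilocybin-light mice (-0.06 to 0.36, 0.265), so that the intervals of this fit include a rise of up to 0.43 on the log2 scale. The lowest value in dark, light and psilocybin-dark mice alike belonged to a mouse with cerebellar markers. Without psilocybin-dark mouse 12 the rise with psilocybin in the dark passed (0.29, edgeR adjusted p = 0.0290), and without all 4 such libraries it was 0.14 (edgeR adjusted p = 0.0371). It also passed with 1 surrogate variable (0.16, edgeR adjusted p = 0.0329). Without dark mice 2 to 5 Ntrk2 was above dark by 0.47 in light, 0.56 in psilocybin-dark and 0.49 in psilocybin-light mice (edgeR adjusted p = 0.00332, 0.00112 and 0.00223), with an interaction of -0.54 (edgeR adjusted p = 0.00902).

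Ntrk3 (ENSMUSG00000059146, chromosome 7, 77825707 to 78387760, minus strand), the gene of the neurotrophin-3 receptor TrkC, was lower in psilocybin-light than in dark mice. Normalized counts ran from 2578 to 3313 in dark (median 2686), from 1965 to 2865 in light (median 2436), from 2520 to 3203 in psilocybin-dark (median 2706) and from 2250 to 2535 in psilocybin-light mice (median 2398). All psilocybin-light mice lay below all dark mice, a separation downward seen in 7.56% of all genes, and 5 of 6 lay below all psilocybin-dark mice. The difference between psilocybin-light and dark mice was -0.23 (SE 0.09, edgeR adjusted p = 0.0362) and the call was lost when any 1 of dark mice 4 and 5 and psilocybin-light mice 19, 21 and 23 was left out (edgeR adjusted p from 0.0598 to 0.101), as well as with no filter on low counts (edgeR adjusted p = 0.0695) and without dark mice 2 to 5 (-0.13, edgeR adjusted p = 0.369). Light against dark (-0.21, edgeR adjusted p = 0.0727) and psilocybin-light against psilocybin-dark (-0.20, edgeR adjusted p = 0.185) had nearly the same size and did not pass, and the first passed without light mouse 15 or 16 (edgeR adjusted p = 0.0329 and 0.0298), with 1 surrogate variable (0.0325) and with the cerebellar (-0.30, 0.00765) or meningeal marker covariate (-0.30, 0.0246). The comparison of the psilocybin groups passed with only these groups in the fit (-0.20, edgeR adjusted p = 0.0335) and with the cerebellar covariate (-0.24, edgeR adjusted p = 0.0439). Psilocybin in the dark left a difference of -0.03 (95% interval -0.21 to 0.15, edgeR adjusted p = 0.827), and the interaction was 0.00446 (SE 0.12, edgeR adjusted p = 0.989).

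Ngfr (ENSMUSG00000000120, chromosome 11, 95459638 to 95478561, minus strand), the gene of p75, was low everywhere, with 7 to 88 counts per library, and highest in the dark mice. Normalized counts ran from 29.7 to 78.7 in dark (median 34.3), from 9.55 to 27.1 in light (median 14.8), from 6.58 to 46.0 in psilocybin-dark (median 15.7) and from 11.8 to 27.5 in psilocybin-light mice (median 13.3). All light and all psilocybin-light mice lay below all dark mice, separations downward seen in 4.41% and 7.56% of all genes. Against dark Ngfr was lower by 2.71-fold in light (log2 -1.44, SE 0.38, edgeR adjusted p = 0.00568), by 2.20-fold in psilocybin-dark (log2 -1.14, SE 0.37, edgeR adjusted p = 0.0290) and by 2.69-fold in psilocybin-light mice (log2 -1.43, SE 0.38, edgeR adjusted p = 0.00481).

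The highest values of Ngfr in 3 groups belonged to libraries with cerebellar markers, 78.7 and 62.1 in dark mice 1 and 6, 46.0 in psilocybin-dark mouse 12 and 27.1 in light mouse 18. Dark mouse 1 also held the most cholinergic neuron markers of any library (1132 normalized counts), whose part in its Ngfr value was not tested. Without these 4 libraries the dark mice still lay highest, at 29.7 to 34.4 against at most 27.6 elsewhere, and the log2 differences from dark were -1.16, -1.08 and -0.94 in light, psilocybin-dark and psilocybin-light mice (edgeR adjusted p = 0.00494, 0.00928 and 0.0114). Without dark mice 2 to 5 they were -2.08, -1.77 and -2.06 (edgeR adjusted p = 0.00106, 0.00390 and 0.000969). The psilocybin-dark call was lost when dark mouse 1 or 6 or psilocybin-dark mouse 7, 8, 10 or 11 was left out (edgeR adjusted p from 0.0533 to 0.0861) and with only the compared groups in the fit (edgeR adjusted p = 0.0997). The interaction of 1.15 (SE 0.55, edgeR adjusted p = 0.196) did not pass with all libraries in that fit but did without psilocybin-dark mouse 12 (1.57, edgeR adjusted p = 0.0454), without all 4 libraries with cerebellar markers (1.30, 0.0328), without dark mice 2 to 5 (1.79, 0.0324) and with 1 surrogate variable (1.10, 0.0438).

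Sort1 (ENSMUSG00000068747, chromosome 3, 108191285 to 108268842, plus strand), the gene of sortilin, rose in psilocybin-light mice. Normalized counts ran from 6918 to 11362 in dark (median 9553), from 9262 to 11124 in light (median 10153), from 9338 to 11629 in psilocybin-dark (median 11161) and from 10266 to 12160 in psilocybin-light mice (median 11329). The ranges overlapped in every pair. Psilocybin-light mice stood 1.21-fold above dark mice (log2 0.27, SE 0.09, edgeR adjusted p = 0.0249), but the 2 lowest dark values belonged to mice 1 and 6, and without the 4 libraries with cerebellar markers the difference was 0.13 (edgeR adjusted p = 0.0784). Leaving out dark mouse 1 or psilocybin-light mouse 20 alone also ended the call (edgeR adjusted p = 0.0503 and 0.0565), as did a fit of the compared groups alone (edgeR adjusted p = 0.0826). Without dark mice 2 to 5 Sort1 was above dark by 0.48 in light, 0.58 in psilocybin-dark and 0.63 in psilocybin-light mice (edgeR adjusted p = 0.000192, 3.65e-05 and 1.04e-05), with an interaction of -0.43 (edgeR adjusted p = 0.00449). Psilocybin-dark mice differed from dark by 0.23 (edgeR adjusted p = 0.0755) and light mice by 0.12 (edgeR adjusted p = 0.325), and the first passed without dark mouse 3 or 5 or psilocybin-dark mouse 12 (edgeR adjusted p from 0.0207 to 0.0373) and with 1 surrogate variable (0.18, edgeR adjusted p = 0.0128).

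**Figure D3:**
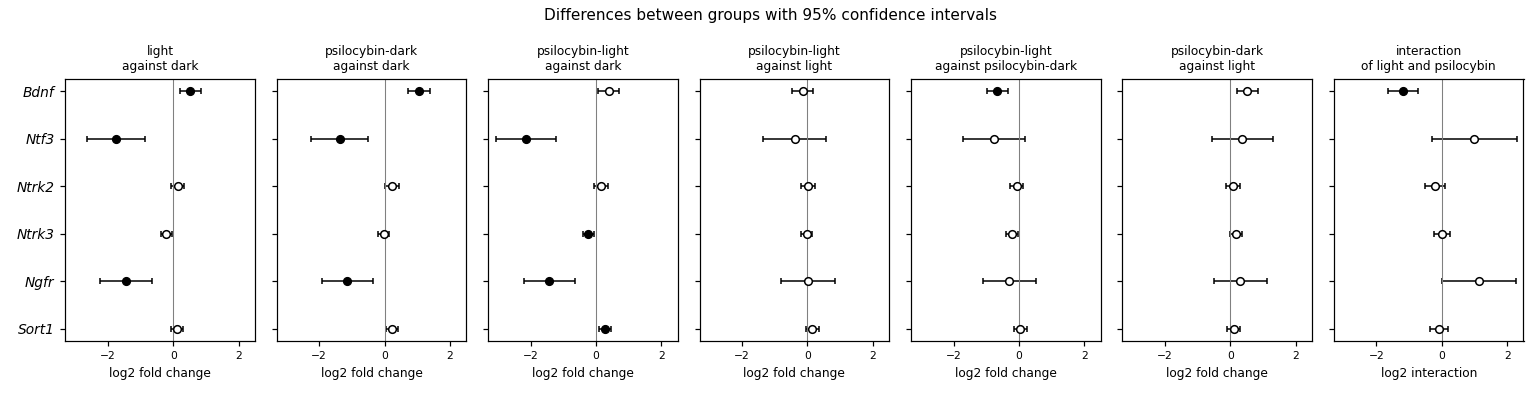
Log2 fold changes of the 6 genes in 6 comparisons and the log2 interaction, each with its 95% confidence interval from the fit of all 24 libraries; filled circles passed an edgeR adjusted p of 0.05 and open circles did not. Bdnf lies right of 0 in light and psilocybin-dark mice and left of 0 in psilocybin-light against psilocybin-dark mice and in the interaction, where it is the only filled circle, and the wide intervals are those of the low-count genes Ntf3 and Ngfr.

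Per kilobase of annotated exon, the order of the members was led by Sort1, with group means from 1132 to 1366 normalized counts per kb, and Ntrk2, from 440 to 513. Bdnf followed with means from 77.5 to 160 and Ntrk3 with 76.4 to 89.8. In dark mice these neighbours did not differ beyond their spread (77.5 ± 18.2 and 89.8 ± 9.55, SD, n = 6 each), whereas in psilocybin-dark mice Bdnf stood at 160 ± 37.1 and Ntrk3 at 87.9 ± 7.67. Ntf3 (8.25 to 36.8) and Ngfr (4.81 to 13.1) came last. Exon lengths are unions over all annotated transcripts, 40 for Ntrk2 and 38 for Ntrk3, which lowers the values of these genes where few of the transcripts are used.

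Ntf5, the gene of neurotrophin-4, reached 7 counts in any library and was not tested. Dark mouse 1 held 1132 normalized counts of 4 cholinergic markers, against 10.1 to 37.6 in every other library.

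The sums of several marker lists moved with the members along the contrast to the dark mice. The 10 hippocampal markers, of which 7 were tested, summed to 4154 to 11925 normalized counts in dark mice (median 8663), 5117 to 6348 in light, 4975 to 6850 in psilocybin-dark and 5484 to 6254 in psilocybin-light mice, and no marker of the list was at 0 in all mice of a group. Meningeal fibroblast markers (5 of 5 tested) summed to 2098 to 5819 in dark, 968 to 3475 in light, 823 to 2708 in psilocybin-dark and 721 to 2230 in psilocybin-light mice. Only 1 of these 5 passed as lower than dark in each of the 3 groups. Their median log2 differences from dark were 0.09 in light, 0.12 in psilocybin-dark and -0.44 in psilocybin-light mice. Layer 4 markers (3 of 3 tested), which mark the layer that receives visual input, summed to 277 to 583 in dark, 545 to 1267 in light, 587 to 1161 in psilocybin-dark and 714 to 1022 in psilocybin-light mice, and all 3 passed as higher in each group than in dark. Markers of neocortical glutamatergic neurons (5 of 5 tested), the cells expected in this tissue, were at 12898 to 33552 in dark and 27775 to 37761 in the other groups. Although these sums overlap, 3 of the 5 passed as higher than dark in each of the 3 groups and none as lower. Their median log2 difference from dark was 1.05 in psilocybin-dark and 0.95 in psilocybin-light mice, and larger still in light mice. No fit used these glutamatergic markers as a covariate. Striatal markers (6 of 6 tested) summed to 1919 to 3006 in dark, 3416 to 4019 in light, 2809 to 3665 in psilocybin-dark and 3309 to 4350 in psilocybin-light mice, so that light and psilocybin-light mice lay above all dark mice. Astrocyte markers (5 of 5 tested) were at 19020 to 28217 in dark (median 20589) and had medians of 16302 to 18287 in the other groups, with overlapping ranges. Each of these lists has a different median sum in the dark mice, and their part in the differences of Bdnf, Ntf3, Ngfr and Sort1 from dark was not tested beyond the covariate fits. Those fits used the mean log2 level of the tested markers of a list and not the sum.

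With the hippocampal marker level as a covariate, all 10 calls of members against dark were lost, with edgeR adjusted p from 0.169 to 0.638. The standard errors rose in this fit, for Bdnf in light from 0.16 to 0.26 and for Ntf3 in light from 0.43 to 0.61. Of the fold changes, Ntrk3 in psilocybin-light mice was -0.27, against -0.23 without the covariate, while Bdnf was 0.24 in light and 0.75 in psilocybin-dark mice, Ntf3 -1.17, -0.80 and -1.48 and Ngfr -1.02, -0.72 and -0.95 in light, psilocybin-dark and psilocybin-light mice, and Sort1 0.16 in psilocybin-light mice. With the meningeal markers as a covariate 6 calls were lost, Bdnf in light (0.49, edgeR adjusted p = 0.0546), Ntf3 in light (-1.04, 0.0631) and psilocybin-dark (-0.99, 0.0559), Ngfr in psilocybin-dark (-0.92, 0.0811) and psilocybin-light (-1.05, 0.0525) and Sort1 in psilocybin-light mice (0.25, 0.106). With the cerebellar markers 3 were lost, Bdnf in light (0.35, edgeR adjusted p = 0.0560), Ngfr in psilocybin-light (-0.56, 0.0964) and Sort1 in psilocybin-light mice (0.11, 0.280). The comparison of the psilocybin groups does not use dark mice. There the median log2 difference over single markers was 0.12 for layer 4, -0.18 for hippocampus, -0.25 for meninges and -4.63 for cerebellum, whose markers mouse 12 held. By their sum the layer 4 markers were lower, with medians of 933 in psilocybin-dark and 806 in psilocybin-light mice. The sums of the other 3 lists also had lower medians in psilocybin-light mice. The Bdnf difference stayed between -0.74 and -0.66 over the alternatives, and the part of layer 4 content in it was not tested.

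**Figure D4:**
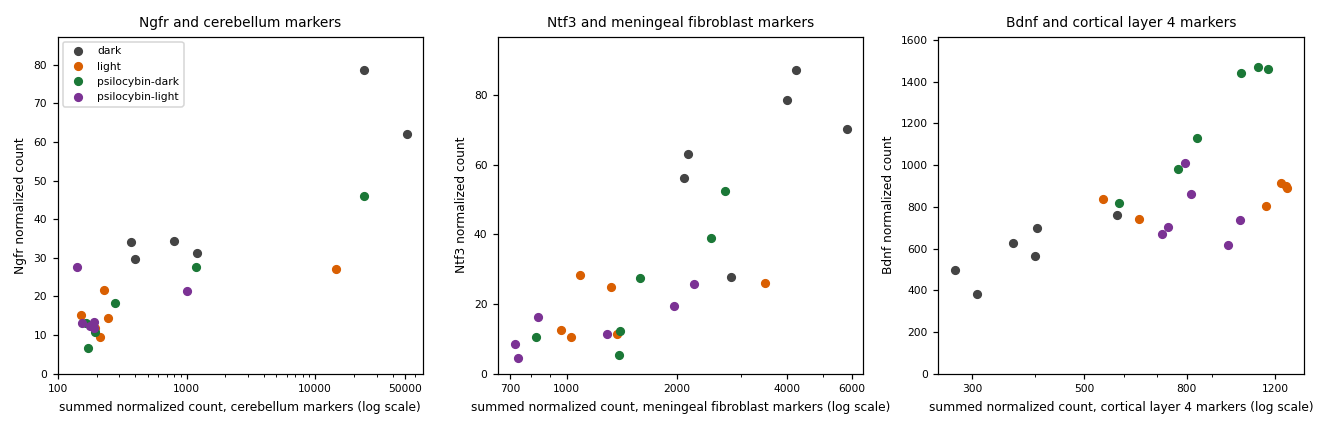
Normalized counts of Ngfr, Ntf3 and Bdnf (linear y axes from 0) against the summed normalized counts of cerebellum, meningeal fibroblast and cortical layer 4 markers (log x axes), 1 point per mouse coloured by group. The 4 libraries far right for cerebellar markers include the 3 highest Ngfr values, 5 of 6 dark mice lie above all other mice for Ntf3, and 4 psilocybin-dark mice lie above all other mice for Bdnf while light mice reach the same layer 4 level.

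The pathway around the members was read from lists of genes, given here as counts passed, higher and lower, beside the 31.9%, 24.7% and 38.4% of all genes tested that passed in light, psilocybin-dark and psilocybin-light mice against dark. Genes known to rise after BDNF passed as higher in 9 of 9 in light, psilocybin-dark and psilocybin-light mice, with median log2 values of 1.32, 1.33 and 1.37 against medians of all genes of -0.01, -0.02 and -0.02. Between psilocybin-light and psilocybin-dark mice 1 of the 9 passed, against 6.38% of all genes. It was Fos, which was higher (log2 0.94, edgeR adjusted p = 0.0131). No gene of this list passed as lower there, whereas Bdnf did, and the median of the list was 0.20. In the interaction 4 of 9 passed as lower, Arc (-2.03), Homer1 (-1.78), Egr1 (-1.48) and Npy (-1.08), against 4.86% of all genes in that direction and 8.75% in either. A lower interaction means less than light alone and psilocybin alone added together on the log2 scale, and need not be a fall. The mean of Arc was highest in psilocybin-light mice, at 10248 normalized counts against 7729 in light and 5902 in psilocybin-dark mice. Egr2 did not pass the interaction (-0.84, edgeR adjusted p = 0.420). These genes also respond to activity by other routes. The list was chosen with earlier results of these data known, so its 9 of 9 adds no independent support.

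Of 17 regulators of Bdnf transcription, 4 were higher and 3 lower in light, 4 and 2 in psilocybin-dark and 6 and 5 in psilocybin-light mice, each against dark. These are 7, 6 and 11 of 17, against 31.9%, 24.7% and 38.4% of all genes, and furthest above that share in psilocybin-light mice. The medians of the list were 0.03, 0.06 and -0.00249. Npas4 (log2 2.37 in light), Mef2c (0.97) and Bhlhe40 (0.67), a repressor, had the largest changes among those that passed in light. Between the psilocybin groups Npas4 was higher and Creb1, Crebbp and Rest were lower in psilocybin-light mice. Rest, the gene of a repressor of neuronal genes, was at -0.55 (edgeR adjusted p = 0.0196). In the interaction Npas4 (-1.42), Mef2c (-1.12) and Crebbp (-0.61) passed as lower and Carf (0.31) as higher, which is 4 of 17 against 8.75% of all genes.

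Proneurotrophin processing and release was tested in 11 of 14 genes, with 1 higher and 4 lower in light, 2 and 2 in psilocybin-dark and 2 and 3 in psilocybin-light mice. These are 5, 4 and 5 of 11, against 31.9%, 24.7% and 38.4% of all genes, with medians of 0.02, -0.00617 and -0.06. Pcsk2, the gene of a second prohormone convertase, rose in all 3 groups (log2 0.64, 0.67 and 0.79), and Cadps2, which encodes a factor of dense-core vesicle release known to promote BDNF secretion, fell in all 3 (-0.82, -0.65 and -0.90). Mmp9, an extracellular protease that can cut proBDNF, fell in light (-0.61) and psilocybin-dark mice (-0.62). Pcsk1 was the 1 gene of this list that passed between the psilocybin groups. Cadps2 is strongly expressed in the cerebellum, and its highest means and spread were in the dark mice (3077 ± 783 against 1747 ± 154 normalized counts in light, SD, n = 6 each).

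Lists of signalling genes downstream of the receptors had genes passed in both directions. Among 20 Trk adaptors 3 were higher and 5 lower in light, 2 and 3 in psilocybin-dark and 2 and 6 in psilocybin-light mice. These are 8, 5 and 8 of 20, close to the 31.9%, 24.7% and 38.4% of all genes, with medians of -0.03, 0.06 and -0.01. Gab2 (-0.65 in light), Sos1 (-0.41) and Rapgef1 (0.29) changed most in light. Among 25 Ras-MAPK and PI3K-Akt kinases and partners 6 were higher and 4 lower in light, 5 and 2 in psilocybin-dark and 7 and 5 in psilocybin-light mice. These are 10, 7 and 12 of 25, against the same shares, with medians of 0.000913, 0.01 and -0.02, and the list was led by Rps6ka5 (-0.67 in light), the PI3-kinase subunit gene Pik3r1 (0.50) and Mapk3 (-0.49). Between the psilocybin groups the adaptor genes Shc3 (-0.81) and Sos2 (-0.16) and the kinase genes Gsk3b (-0.50), Pdpk1 (-0.23) and the small GTPase gene Nras (-0.21) were lower in psilocybin-light mice and Akt1 was higher (0.13).

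On the p75 side, 4 of 9 partners were higher and 2 lower in light, 3 and 2 in psilocybin-dark and 3 and 1 in psilocybin-light mice. These are 6, 5 and 4 of 9, the last near the 38.4% of all genes, with medians of 0.06, 0.06 and 0.01. The Nogo receptor gene Rtn4r (log2 0.96 in light) and its co-receptor gene Lingo1 (0.72) rose in all 3 groups while Ngfr itself fell. Of the 5 genes of the sortilin family 1 was higher in light, 2 in psilocybin-dark and 3 in psilocybin-light mice and none was lower, against 15.4%, 11.9% and 17.4% of all genes that were higher. The family includes Sort1, which is 1 of the 3 in psilocybin-light mice. Its medians were 0.05, 0.23 and 0.27, the last 2 being the values of Sort1 itself. Sorcs1 was higher in all 3 groups (0.75, 0.76 and 0.91). Genes most like Ngfr over the libraries were Shisa6, Ctbp2 and Paqr6 (Pearson r 0.901, 0.893 and 0.880), those most like Sort1 Plxna2, Mtpn and Atrnl1 (0.974, 0.937 and 0.934), those most like Ntrk2 Tanc2, Arnt2 and Clip2 (0.940, 0.938 and 0.930) and those most like Ntrk3 Ago2, Rnf168 and Dyrk1a (0.821, 0.818 and 0.785), in each case over 24 libraries that share group and tissue content.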

How the data were processed

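RNA from the visual cortex of 24 mice was sequenced after poly-A selection. The authors trimmed reads with cutadapt, mapped them with STAR and counted them per gene with HTSeq; the deposited values are raw counts for 55414 genes. The methods name GRCm39 and the sample labels mm10; the annotation release and the strand setting are not given in the sources used here, so reads of a gene and its antisense partner cannot be told apart, although genes overlapping the members reached at most 69 counts. Libraries, mice and groups were named by the library number and the headings of the study's supplementary count table. Each library was taken as 1 mouse, so p-values measure the spread between these libraries.

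The counts were fitted with edgeR 4.0.16 (R 4.3.3): the 14464 genes reaching 30 counts in some library, TMM, 1 term per group, all 24 libraries, quasi-likelihood tests, two-sided, Benjamini-Hochberg over all genes tested, threshold 0.05. The biological coefficient of variation was 0.182. Single values of Bdnf were also compared by exact permutation (924 splits). Gene positions and 54749 names came from GENCODE vM39. The fit was tested on simulated data. Alternatives were DESeq2 1.42.0 with the study's parameters, DESeq2 size factors, no filter or filterByExpr, fits of the compared groups alone, 1 surrogate variable (sva 3.50.0), marker covariates, libraries left out, the labels' exposure and a threshold of 0.01; the cerebellar and meningeal covariates were added after seeing the data. Members, lists and tests were chosen with earlier results of these data known. Named are the 6 members, another ligand, up to 3 genes per list with the largest change among those passed in light against dark, and the genes most like each member (mean count at least 50); list genes that passed between the psilocybin groups or in the interaction were named after their values were seen. Some genes of the lists are not reported here.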

Additional observations from a re-analysis of the deposited data

Results flagged for a closer look

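The effect of psilocybin on Bdnf differed between mice kept in the dark and mice moved into light, by the interaction term of the edgeR fit: -1.19 on the log2 scale (SE 0.22, edgeR adjusted p = 0.00333). Psilocybin against vehicle was 1.05 in the dark and -0.15 in light, with all 6 psilocybin-dark mice above all dark mice. With the hippocampal marker covariate the Bdnf interaction was -0.93 and did not pass (edgeR adjusted p = 0.262). No other member had an interaction that passed in the fit of all 24 libraries without covariates. Without dark mice 2 to 5 those of Ngfr (1.79, edgeR adjusted p = 0.0324), Ntrk2 (-0.54, 0.00902) and Sort1 (-0.43, 0.00449) passed. That of Ngfr also passed with 1 surrogate variable (1.10, edgeR adjusted p = 0.0438), without psilocybin-dark mouse 12 and without the 4 libraries with cerebellar markers. Of the 24 sets of 6 mice (6 genes in 4 groups) screened by Dixon's ratio, none held a single mouse far from the others; chance alone flags about 1 in 20.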

How the results depend on the processing

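No result that passed changed sign over the alternatives, other than through the sample labels' light exposure, under which light against dark, psilocybin-light against psilocybin-dark and the interaction change sign by construction. Over 42 pairs of member and comparison, 404 of 456 alternative values stayed on the same side of the threshold, 27 lost it and 25 gained it; of 1008 values with 1 library left out, 981 stayed, 15 lost it and 12 gained it.

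The number of members that passed moved by over 1.5 times in the following settings, and by less in others (light against dark to 2 with the meningeal covariate; psilocybin-dark against dark to 4 without either set of doubted libraries; psilocybin-light against dark to 3 without the 4 libraries with cerebellar markers and to 5 without dark mice 2 to 5 or with DESeq2). Light against dark (3) gave 0 with the hippocampal covariate and 5 without dark mice 2 to 5. Psilocybin-dark against dark (3) gave 1 with only the compared groups, with the meningeal covariate or at 0.01, 5 with 1 surrogate variable, 0 with the hippocampal covariate and 0 with the labels' exposure. Psilocybin-light against dark (4) gave 0 with the hippocampal covariate and with the labels' exposure, and 2 with the cerebellar or meningeal covariate or at 0.01. Psilocybin-light against light (0) gave 3 with the labels' exposure. Psilocybin-light against psilocybin-dark (1) gave 2 with only the compared groups or the cerebellar covariate and 0 at 0.01. Psilocybin-dark against light (0) gave 1 with DESeq2, 1 surrogate variable, the cerebellar covariate, without the 4 libraries with cerebellar markers or without dark mice 2 to 5, and 4 with the labels' exposure. The interaction (1) gave 2 with 1 surrogate variable or without those 4 libraries, 0 with the hippocampal covariate and 4 without dark mice 2 to 5. With 1 library left out the counts ranged, in this order, from 3 to 4, 1 to 5 (1 without psilocybin-dark 8 or 10, 5 without 12), 3 to 5, 0 to 0, 1 to 1, 0 to 1 (1 without psilocybin-dark 12) and 1 to 2 (2 without psilocybin-dark 12).

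Bdnf in light against dark lost its call with the hippocampal (0.24, edgeR adjusted p = 0.637), cerebellar (0.35) and meningeal covariate (0.49), and in psilocybin-dark against dark with the hippocampal covariate (0.75, edgeR adjusted p = 0.324). Psilocybin-light against dark was called with DESeq2 (0.39) and without dark mice 2 to 5 (0.81, edgeR adjusted p = 0.00366). Psilocybin-dark against light was called with DESeq2 (0.52, adjusted p = 0.0437), 1 surrogate variable (0.48), the cerebellar covariate (0.54), without the 4 libraries (0.60) and without dark mice 2 to 5 (0.52). The interaction lost its call with the hippocampal covariate (-0.93). With 1 library left out Bdnf ranged from 0.43 to 0.61 in light against dark, 0.95 to 1.14 in psilocybin-dark against dark, 0.29 to 0.47 in psilocybin-light against dark (edgeR adjusted p from 0.0250 to 0.147; called without dark 4 or 5, psilocybin-dark 12 or psilocybin-light 19), -0.23 to -0.08 in psilocybin-light against light, -0.75 to -0.60 in psilocybin-light against psilocybin-dark, 0.46 to 0.61 in psilocybin-dark against light (called without psilocybin-dark 12) and -1.28 to -1.09 in the interaction. Of the genes most like each member, 1 was shared between Pearson r and Spearman rho for each of the 6. The cause of these changes was not tested, apart from fewer libraries or groups in a fit. The interaction has no fit with only the compared groups, since it uses all 4. No paired analysis was possible because the library numbers are not shared between groups. Ntf3 and Ngfr are limited by depth, with 4 to 94 and 7 to 88 counts per library.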
